A study of Mus musculus with 11 samples.

Results

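*Per3* and 9 other genes of the circadian clock were followed through RNA-Seq libraries of mouse dorsal root ganglia (DRGs), the ganglia that hold primary sensory neurons and their satellite glial cells (SGCs). The members were the rows of the deposited table named *Per1*, *Per2*, *Per3*, *Ciart*, *Nr1d1*, *Nr1d2*, *Dbp*, *Tef*, *Nfil3* and *Arntl*, 10 genes of 36670, and all 10 were among the 15087 genes with a mean of at least 0.5 FPKM that were tested. FPKM is a level per transcript length and library size. There were 11 libraries, 3 from WT control mice, 3 from WT mice 4 weeks after paclitaxel (PTX), 3 from *Gpr37l1* KO control mice and 2 from KO mice 4 weeks after PTX, a chemotherapy drug that causes painful neuropathy. The KO was constitutive, the mice were littermates on a C57BL/6 background, and no promoter or Cre restricts the deletion to SGCs. The labels do not state the age or PTX dose of the sequenced mice, nor the hour at which DRGs were taken. In each group the highest numbered mouse (replicate 3) was labelled female and the others male, which gave 4 female and 7 male libraries, so the label of sex cannot be told apart from replicate 3.

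The members were chosen by their values in these same libraries. *Per3* was the 1 gene of 15087 (0.00663%) that passed an adjusted p of 0.05 for PTX in WT mice (edgeR), a call that was lost with limma, without the sex term and without WT control 1, WT PTX 1, WT PTX 2 or KO PTX 3, and the other 9 were picked with their values in WT controls and WT PTX mice in view. What follows for PTX in WT, and for the KO against the WT mice, is therefore a description without a test. PTX in KO mice and the difference between the sexes were not the contrasts that picked them and were tested (except for *Per3* between the sexes, since the fit that picked it had a sex term), although earlier values of PTX in KO were known when the members were listed.

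The circadian clock is a feedback loop of transcription that runs in most cells over a day. BMAL1, the product of *Arntl*, binds with CLOCK to E-boxes and turns on the *Per* genes, *Ciart* and the *Nr1d* genes, and the PER and CIART proteins hold BMAL1 and CLOCK back. The nuclear receptors REV-ERBα and REV-ERBβ, made from *Nr1d1* and *Nr1d2*, bind ROR elements and silence *Arntl* and *Nfil3*. DBP and TEF activate genes through D-boxes, and NFIL3 represses through the same motif. In peripheral tissues *Arntl* and *Nfil3* therefore peak at another time of day than *Dbp*, *Tef* and the *Per* genes.

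Promoter sequence was available for 9 members (12 promoters in RefSeq, GRCm38.p6, each 250 bases before to 50 after a start site). The motifs searched were read on both strands, namely the E-box CACGTG, the D-box TTATGTAA or TTACGTAA, the ROR element TAGGTCA and the cAMP response element TGACGTCA. Among 32851 promoters of this length, 7.15% hold the E-box, 1.06% the D-box, 2.61% the ROR element and 1.79% the cAMP response element. An E-box was found in *Per1*, *Ciart* and *Tef*, a D-box in *Per3* and a ROR element in *Nfil3* and *Arntl*, and no matches overlapped. The cAMP response element was in none of the 12 windows, and *Nr1d1*, *Nr1d2* and *Dbp* held none of the motifs in this window. A match of letters is a description and does not show binding. The 4 promoters below are shown because they carry each kind of match in the members with the largest differences after PTX in WT mice. Capitals mark the matches, and each run is written 5′ to 3′ on the strand of the gene. The *Per3* promoter (chr4:151044616-151044915, minus strand) has D-boxes starting 205 and 158 bases upstream of the start site. The *Ciart* promoter (chr3:95882179-95882478, minus strand) has E-boxes starting 116, 58 and 44 bases upstream.
*Per3*: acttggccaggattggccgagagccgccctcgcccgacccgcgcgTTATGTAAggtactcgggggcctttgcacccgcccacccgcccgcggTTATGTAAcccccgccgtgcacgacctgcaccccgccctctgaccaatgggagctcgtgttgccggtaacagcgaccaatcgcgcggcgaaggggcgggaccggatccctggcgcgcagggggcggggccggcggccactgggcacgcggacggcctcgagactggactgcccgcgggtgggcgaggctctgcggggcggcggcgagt
*Ciart*: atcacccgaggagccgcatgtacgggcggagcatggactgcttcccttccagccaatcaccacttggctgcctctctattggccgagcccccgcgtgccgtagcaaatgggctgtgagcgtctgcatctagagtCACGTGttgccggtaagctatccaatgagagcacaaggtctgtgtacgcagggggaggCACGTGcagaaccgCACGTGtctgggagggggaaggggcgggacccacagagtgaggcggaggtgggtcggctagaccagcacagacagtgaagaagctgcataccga
In the *Nfil3* promoter (chr13:52980990-52981289, minus strand) the ROR element lies on the opposite strand and starts 12 bases upstream. The second *Arntl* promoter (chr7:113207261-113207560, plus strand) has it 30 bases downstream of the start site.
*Nfil3*: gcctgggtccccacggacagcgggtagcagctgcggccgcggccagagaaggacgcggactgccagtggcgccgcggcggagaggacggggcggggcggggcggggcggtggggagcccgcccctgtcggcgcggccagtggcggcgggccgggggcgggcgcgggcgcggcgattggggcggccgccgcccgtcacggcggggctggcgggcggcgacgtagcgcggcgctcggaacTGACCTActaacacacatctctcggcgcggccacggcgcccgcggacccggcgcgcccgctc
*Arntl*: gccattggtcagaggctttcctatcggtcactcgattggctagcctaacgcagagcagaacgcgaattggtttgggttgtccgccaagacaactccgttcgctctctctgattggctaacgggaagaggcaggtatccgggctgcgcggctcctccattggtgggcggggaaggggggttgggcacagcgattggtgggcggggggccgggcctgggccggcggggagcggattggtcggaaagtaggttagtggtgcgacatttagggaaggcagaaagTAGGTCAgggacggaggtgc

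The libraries held 52735648 to 80348732 counts with a median of 75538569, and the 2 KO PTX libraries held 54914928 and 56747335. *Gpr37l1* was at 14.6 to 35.7 FPKM in the 6 WT libraries and at 0.21 to 1.15 FPKM in the 5 KO libraries. Markers of sensory neurons, SGCs and Schwann cells were found in every library. The summed FPKM of 8 macrophage markers was 34.6 to 44.7 in WT controls, 24.1 to 29.4 in WT PTX mice, 30.2 to 33.6 in KO controls and 26.7 to 32.3 in KO PTX mice. Markers of central glia (7 genes, with *Opalin* and *Mog* at 0 in at least 1 library) summed to 2.43 to 6.45 FPKM in the other groups and to 5.93 and 18.9 in the KO PTX mice. The sum of 8 skeletal muscle markers ran from 3.49 to 625 FPKM and that of 7 blood markers from 82.4 to 318. The part of these cells in any value below was not tested, and in whole ganglia fewer cells of a type and less RNA per cell cannot be told apart.

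In WT controls the members spanned from *Tef* at 11.5 FPKM on average down to *Ciart* at 0.67 FPKM (n = 3). *Tef*, *Nr1d1* at 9.04 and *Nr1d2* at 7.33 FPKM formed the upper range, and the libraries of each overlapped those of the next. *Nfil3* at 4.08, *Per1* at 3.18 and *Dbp* at 2.69 FPKM followed without overlap with *Nr1d2*, and overlapped their neighbours among themselves. *Per2* at 1.30, *Arntl* at 1.09 and *Per3* at 0.97 FPKM lay below *Dbp* and also overlapped their neighbours, and *Ciart* lay below *Per3* without overlap. By mean FPKM in WT controls, 73.3% of tested genes lay below *Tef*, 14.8% below *Arntl*, 12.4% below *Per3* and 5.13% below *Ciart*. After PTX in WT mice the order changed in its middle and at its lower end. *Dbp* at 5.21, *Per1* at 3.72 and *Nfil3* at 2.55 FPKM followed one another without overlap, the reverse of their order in WT controls. Below them lay *Per3* at 1.98, *Per2* at 1.89 and *Ciart* at 1.66 FPKM, all above *Arntl* at 0.53 FPKM. In that group *Arntl* was the lowest member and did not overlap *Ciart*.

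*Per3* (chr4:151003652-151044665, minus strand) encodes a PER protein, which damps BMAL1 and CLOCK. It was at 0.79, 0.89 and 1.24 FPKM in WT controls 1, 2 and 3, and at 1.88, 1.84 and 2.22 FPKM in the WT PTX mice. It was at 1.23, 1.12 and 1.80 FPKM in KO controls 1, 2 and 3, and at 1.66 and 2.18 FPKM in KO PTX mice 2 and 3. Every WT PTX library lay above every WT control, whereas the KO groups overlapped because the female KO control was above the male KO PTX mouse. Within each group the female had the highest *Per3*. Among the females, a single mouse per group, it was 1.24 FPKM in the WT control and 2.22 in the WT PTX mouse, against 1.80 and 2.18 in the KO. Among males it was 0.79 and 0.89 FPKM in WT controls and 1.88 and 1.84 after PTX. In KO males it was 1.23 and 1.12 FPKM in controls and 1.66 in the PTX mouse. The log2 fold change was 1.04 ± 0.10 (SE) for PTX in WT and 0.41 ± 0.11 for PTX in KO, the latter with an adjusted p of 0.999 (edgeR) and an unadjusted p of 0.00382. *Per3* lies on the same strand as *Camta1*, with which it shares 0 exonic bases in GENCODE M21, and reads from introns of *Camta1* could still fall within it.

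**Figure D1:**
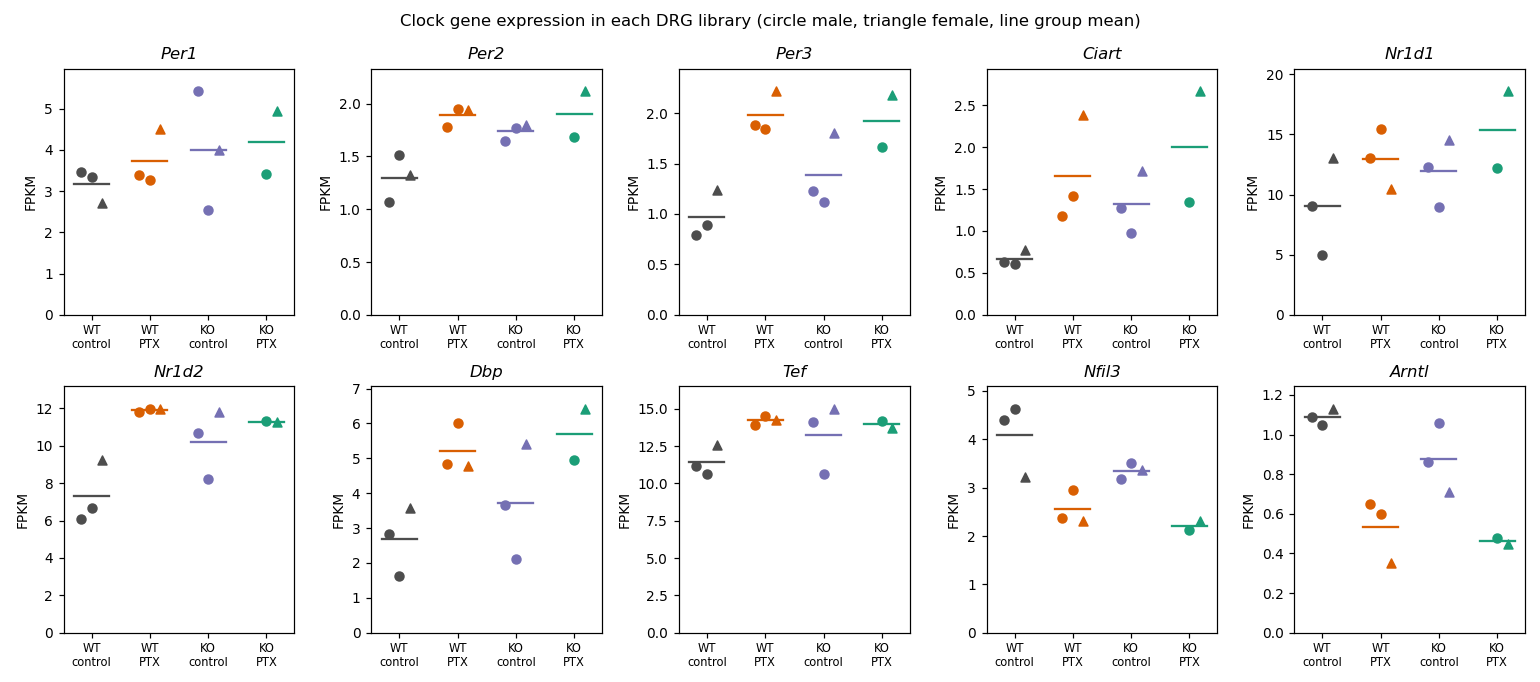
Expression of the 10 clock genes in each of the 11 libraries by group, in FPKM on an axis from 0. Circles are males, triangles females and lines group means. *Per3* lay between 1.84 and 2.22 in the WT PTX mice and between 0.79 and 1.24 in WT controls, while *Arntl* lay between 0.35 and 0.65 against 1.05 and 1.13.

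*Ciart* (chr3:95878503-95882231, minus strand), the gene of a repressor of BMAL1 and CLOCK, was at 0.63, 0.60 and 0.77 FPKM in WT controls and at 1.18, 1.42 and 2.38 FPKM in WT PTX mice. In the KO it was at 1.27, 0.98 and 1.71 FPKM in controls and at 1.34 and 2.67 FPKM after PTX. WT controls, which were in view when *Ciart* was picked, lay below all 8 other libraries. The share of all genes for which they do was not computed. The female was the highest of its group in all 4 groups. The log2 fold change of *Ciart* was 1.25 ± 0.21 for PTX in WT and 0.44 ± 0.23 for PTX in KO (adjusted p = 0.999, edgeR). *Per2* (chr1:91415982-91459324, minus strand) ran from 1.07 to 1.51 FPKM in WT controls, 1.78 to 1.95 in WT PTX mice, 1.65 to 1.80 in KO controls and 1.68 to 2.12 in KO PTX mice. As for *Ciart*, WT controls were the low group and the KO groups overlapped. *Per1* (chr11:69095217-69109960, plus strand), which also answers to cAMP and glucocorticoids, showed no separation of any groups, with 2.72 to 3.46 FPKM in WT controls, 3.27 to 4.51 after PTX, 2.55 to 5.43 in KO controls and 3.41 to 4.95 in KO PTX mice.

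*Dbp* (chr7:45705088-45710203, plus strand) encodes a D-box activator. It was at 2.83, 1.64 and 3.59 FPKM in WT controls, 4.83, 6.01 and 4.78 in WT PTX mice, 3.67, 2.12 and 5.40 in KO controls, and 4.95 and 6.42 in KO PTX mice. Within both control groups mouse 2 was the lowest and the female the highest, and the female KO control lay above the male KO PTX mouse. The log2 fold change was 1.01 ± 0.28 for PTX in WT and 0.57 ± 0.30 for PTX in KO (adjusted p = 0.999, edgeR). *Tef* (chr15:81802421-81826863, plus strand), the other D-box activator, moved within a narrow range, from 10.6 to 12.6 FPKM in WT controls, 13.9 to 14.5 in WT PTX mice, 10.6 to 15.0 in KO controls and 13.7 to 14.2 in KO PTX mice. Of *Dbp* exons, 18.0% (539 bases) overlap exons of *Sphk2* on the opposite strand, and the strand setting of the counting is not given in the sources used here, so reads there could be from either gene.

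*Nr1d1* and *Nr1d2* encode the REV-ERB repressors. *Nr1d1* (chr11:98767932-98775333, minus strand) was at 9.06, 4.99 and 13.1 FPKM in WT controls, 13.0, 15.4 and 10.4 in WT PTX mice, 12.3, 8.97 and 14.5 in KO controls, and 12.2 and 18.6 in KO PTX mice. The WT groups overlapped, with the female WT control above 2 of the 3 PTX mice, and mouse 2 was again the lowest of both control groups. *Nr1d2* (chr14:18204054-18239127, minus strand) was tight after PTX, at 11.8 to 12.0 FPKM in WT and 11.3 in both KO mice, against 6.06 to 9.24 in WT controls and 8.20 to 11.8 in KO controls. Exons of *Nr1d1* share 263 bases (8.55%) with *Thra* on the opposite strand, whose mean level was 45.6 FPKM.

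*Arntl* and *Nfil3* lay on the other side. *Arntl* (chr7:113207465-113314126, plus strand) was at 1.09, 1.05 and 1.13 FPKM in WT controls and at 0.65, 0.60 and 0.35 FPKM in WT PTX mice. In the KO it was at 0.86, 1.06 and 0.71 FPKM in controls and at 0.48 and 0.45 FPKM after PTX. All 5 PTX libraries lay below all 6 controls. That is a description, since *Arntl* was picked with the WT libraries in view, and the share of all genes separated in this way was not computed. The log2 fold change was -1.07 ± 0.19 for PTX in WT and -0.84 ± 0.22 for PTX in KO, the latter with an adjusted p of 0.999 (edgeR) and an unadjusted p of 0.00345. *Nfil3* (chr13:52967209-52981073, minus strand) was at 4.39, 4.63 and 3.22 FPKM in WT controls and 2.38, 2.95 and 2.32 in WT PTX mice. In the KO it was at 3.17, 3.50 and 3.37 FPKM in controls and at 2.12 and 2.31 after PTX. As for *Arntl*, no PTX library reached a control, which is again a description. Its log2 fold change was -0.67 ± 0.16 for PTX in WT and -0.57 ± 0.19 for PTX in KO (adjusted p = 0.999 and unadjusted p = 0.0125, edgeR).

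For PTX in WT mice, 6 members did not overlap and were higher (*Per2*, *Per3*, *Ciart*, *Nr1d2*, *Dbp* and *Tef*), against 6.81% of all tested genes, and 2 were lower (*Nfil3* and *Arntl*), against 7.37%. These are the libraries that chose the members, and nothing is read from that excess. The remaining log2 fold changes were 0.72 ± 0.12 for *Nr1d2*, 0.59 ± 0.28 for *Nr1d1*, 0.54 ± 0.14 for *Per2*, 0.31 ± 0.10 for *Tef* and 0.21 ± 0.25 for *Per1*. With 1 library left out, *Nr1d1* was at 0.30 without WT control 2 and 0.39 without WT PTX 2 and at 0.90 without WT PTX 3, and *Per1* was -0.00 without WT control 3 and 0.05 without WT PTX 3.

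The groups compared for PTX in KO mice are not those of the comparison that picked the members. Both comparisons came from 1 fit of all 11 libraries, with a shared sex term and a shared estimate of the spread. The call that picked *Per3* was lost without KO PTX 3, so the 2 comparisons are not independent. None of the 10 members passed the threshold with edgeR, where 1 gene of 15087 (*Pde10a*, 0.00663%) did, nor with DESeq2, where 29 genes (0.192%) did, nor with limma. At an unadjusted p of 0.05 (edgeR) there were 3 members (*Arntl*, *Nfil3* and *Per3*), beside 4.32% of all tested genes. Earlier values of PTX in KO were known when the members were listed, so nothing is read from that excess. *Nfil3* and *Arntl* were lower without overlap, where 10.4% of genes were, and 0 members were higher without overlap, where 11.3% of genes were. In this fit 8 members had a log2 fold change above 0 and 2 below. The median of the 8 members other than *Arntl* and *Nfil3* was 0.21. Over all 10 members the median was 0.11 beside -0.01 for all genes. The median of all 10 was 0.28 without KO control 1 and 0.29 without KO PTX 2. Only 6 members were above 0 without KO control 2, KO PTX 2 or KO PTX 3. The values of *Nr1d1* (0.29 ± 0.31), *Nr1d2* (0.12 ± 0.13), *Per2* (0.10 ± 0.16), *Tef* (0.06 ± 0.11) and *Per1* (0.03 ± 0.28) were within about their SE of 0, and those of *Per1*, *Per2* (without KO PTX 3), *Nr1d2* (without KO PTX 2) and *Tef* (without KO control 2 or KO PTX 2) changed sign with 1 library left out (for *Per1*, any of WT control 3, KO controls 2 and 3 and KO PTX 3). With 2 KO PTX mice a change of these sizes could not be told from none, and whether the response differed between the genotypes was not tested. Both KO PTX libraries were also shallower than the KO controls, and the part of depth was not tested.

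**Figure D2:**
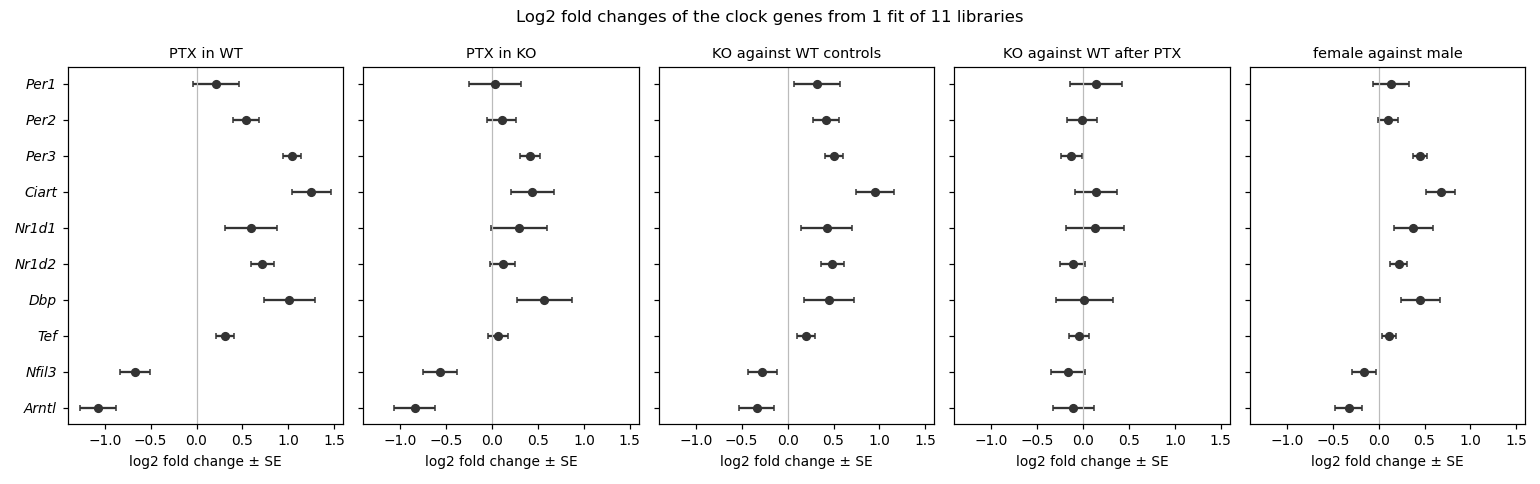
Log2 fold changes of the 10 members with their SE, from 1 edgeR fit of all 11 libraries, in the 4 group comparisons and between the sexes. *Arntl* and *Nfil3* lie below 0 and the other 8 above 0 in all panels but KO against WT after PTX, where values run from -0.17 to 0.14.

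The values for KO against WT controls share the WT controls that chose the members. *Per2* and *Ciart* were higher in KO controls without overlap, where 4.55% of all genes were higher and 4.73% lower. The log2 fold change for KO against WT controls was 0.95 ± 0.21 for *Ciart*, 0.50 ± 0.10 for *Per3*, 0.49 ± 0.12 for *Nr1d2*, 0.45 ± 0.27 for *Dbp*, -0.34 ± 0.19 for *Arntl* and -0.27 ± 0.16 for *Nfil3*. Without WT control 3 the value was -0.15 for *Arntl* and -0.43 for *Nfil3*, and *Dbp* was at 0.24 without WT control 2 or KO control 3. The median of the 8 members other than *Arntl* and *Nfil3* was 0.44 beside 0.00 for all genes. *Per1* had a value of 0.32 ± 0.25 that became -0.05 without KO control 1, the library with 5.43 FPKM. After PTX the genotypes were close, with log2 fold changes from -0.17 (*Nfil3*) to 0.14 (*Ciart*). *Nr1d2* and *Nfil3* were lower in KO PTX mice without overlap, where 9.58% of genes were lower and 10.7% higher.

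In a ratio of 2 members within a library the library size cancels, but not wholly once a constant is added to each FPKM. The *Arntl* to *Dbp* index, log2 of the ratio of FPKM + 0.1, was used because the pair peak at different times of day. It was -1.30, -0.60 and -1.58 in WT controls, -2.72, -3.13 and -3.44 in WT PTX mice, -1.97, -0.94 and -2.76 in KO controls, and -3.12 and -3.57 in KO PTX mice. The means were -1.16 ± 0.51, -3.09 ± 0.36 and -1.89 ± 0.92 (SD, n = 3 each) and -3.34 ± 0.31 (n = 2). In neither genotype did PTX libraries overlap the controls, and the nearest were the female KO control at -2.76 and the male KO PTX mouse at -3.12. The index was part of the rule that set the members, so its values across groups are a description without a test. How many pairs of other genes separate in this way was not computed. KO controls spread the most, from -2.76 to -0.94. The index after PTX minus that in controls was -1.93 in WT and -1.45 in KO, with a pooled SD of 0.60 within groups. Ratios built from other pairs of the same picked members are descriptions too. They gave -1.92 and -1.24 (*Arntl* to *Per3*), -1.64 and -1.25 (*Nfil3* to *Dbp*), and -1.48 and -0.99 (mean of *Arntl* and *Nfil3* to the mean of the other 8). As no label gives the hour at which DRGs were taken, a difference in hour cannot be told apart from PTX or from genotype in any of these comparisons.

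**Figure D3:**
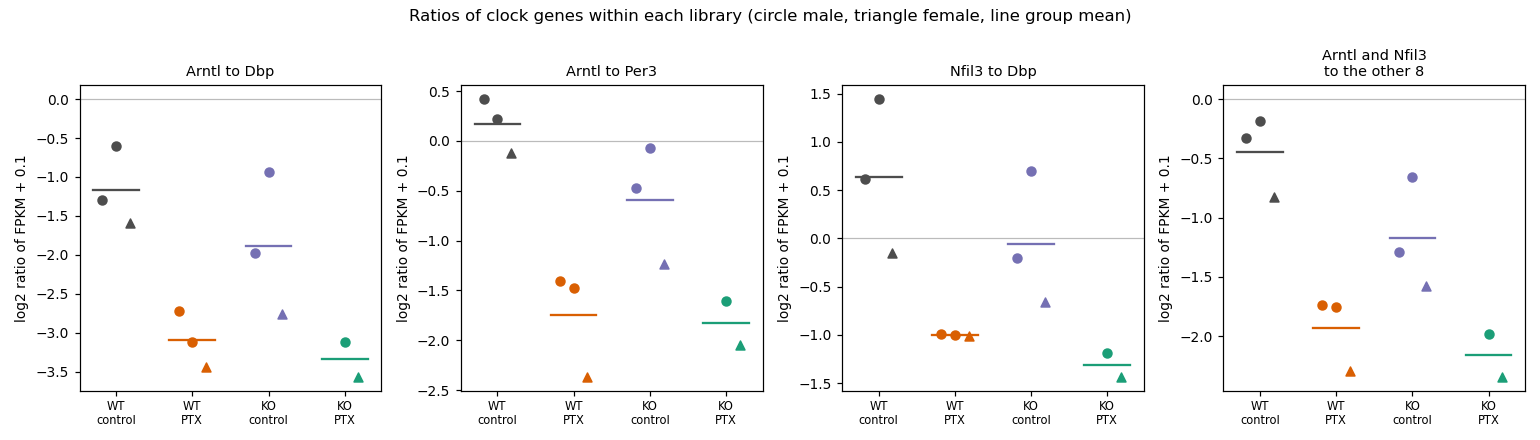
Log2 ratios of FPKM + 0.1 within each library for 4 combinations of the members, by group. Circles are males, triangles females and lines group means. The *Arntl* to *Dbp* ratio lay between -3.57 and -2.72 in the 5 PTX libraries and between -2.76 and -0.60 in the 6 controls, and the female was the lowest of each group.

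The same ratio was compared between the sexes. As replicate 3 was the female of every group and no label gives the hour, sex cannot be told apart here from replicate number or hour. The *Arntl* to *Dbp* index was lower in the female than in the males on average in 4 of 4 groups. Female minus male was -0.73 ± 0.40 (SD over groups), with a mean of -2.84 in females and -2.11 in males. An exact two-sided permutation of sex within groups gave p = 0.037 over 54 arrangements (smallest possible p = 0.0185). The index was part of the rule, and *Arntl* and *Dbp* were picked beside *Per3*, whose call used a sex term. This p is therefore not free of that choice. With FPKM + 1 in place of FPKM + 0.1 the exact permutation p was 0.056, and with any 1 library left out it was 0.056 to 0.111. For single members in the fit of all genes, female against male was 0.45 ± 0.08 on the log2 scale for *Per3* and 0.67 ± 0.16 for *Ciart* (adjusted p = 0.397, edgeR). In both the female lay above the mean of the males in 4 of 4 groups. The value of *Per3* is a description, because its call for PTX in WT was made with the sex term and was lost without it. Of the other 9 members 0 passed with edgeR, where 6 genes of 15087 (0.0398%) did, or with limma. DESeq2 called *Ciart* (adjusted p = 0.0317), where it called 124 of 14794 genes (0.838%), and over all alternatives the adjusted p of *Ciart* ran from 0.0317 to 0.730. At an unadjusted p of 0.05 there were *Ciart* and *Nr1d2*, beside 8.44% of all tested genes. *Dbp* (0.45 ± 0.21), *Nr1d1* (0.38 ± 0.21) and *Arntl* (-0.33 ± 0.15) did not pass, and *Per2* was higher in the female in 4 of 4 groups by only 0.10 ± 0.11. The summed FPKM of 7 sensory neuron markers was 2628 to 2918 in females and 2942 to 3832 in males, lower in the female in each of the 4 groups, and its part in these differences was not tested.

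Members varied together across libraries. On log2(FPKM + 0.1), the 28 pairs among the 8 members other than *Arntl* and *Nfil3* all had a positive Pearson r over the 11 libraries, from 0.32 to 0.93 with a median of 0.77. The 16 pairs between these 8 and *Arntl* or *Nfil3* all had a negative r, from -0.88 to -0.31, and *Arntl* and *Nfil3* had an r of 0.85. Groups differ, so the same was computed on deviations from group means. There, 25 of 28 pairs were positive with a median of 0.46, 2 of 16 were positive with a median of -0.36, and *Arntl* and *Nfil3* had an r of 0.17. *Nr1d1* and *Dbp* had an r of 0.90, *Tef* and *Dbp* 0.87, *Tef* and *Nr1d2* 0.86 and *Per3* and *Nr1d2* 0.81. *Per2* reached 0.46 at most among the 8 (to *Per3*) and held the 3 negative pairs, with *Nr1d1* and *Dbp* (both -0.13) and *Tef* (-0.11). *Per1* reached 0.60 at most, to *Ciart*. The members were picked with their values in WT controls and WT PTX mice in view, so r over all libraries holds that choice. The r of pairs of other genes was not computed for comparison. The libraries share depth, sex and tissue makeup, and these values are descriptions.

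**Figure D4:**
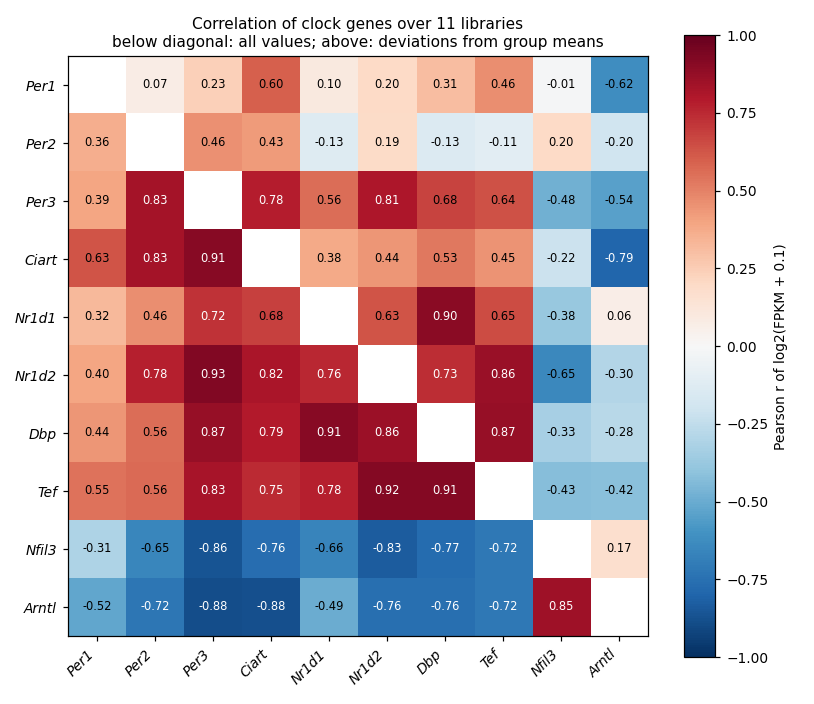
Pearson r of each pair of members over 11 libraries on log2(FPKM + 0.1), below the diagonal for all values and above it for deviations from group means. The block of 8 members is positive below the diagonal (0.32 to 0.93), and the rows of *Nfil3* and *Arntl* are negative to it.

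Over the 15087 tested genes and the 11 libraries, on log2(FPKM + 1), the genes most like *Per3* were *Gprasp1* (r = 0.943, rho = 0.90), *Gpatch8* (r = 0.943, rho = 0.918), *Akap7* (r = 0.941, rho = 0.918), *Arhgap26* (r = 0.936, rho = 0.927) and *D130079A08Rik* (r = 0.925, rho = 0.945). The closest member was *Nr1d2*, at rank 11 with an r of 0.913, ahead of *Ciart* at rank 28 (r = 0.899) and *Dbp* at rank 66 (r = 0.875). *Arntl* was at rank 15078, near the end of the list, with an r of -0.906. Most like *Arntl* were *Litaf* (r = 0.921, rho = 0.90), *Tnfrsf1a* (r = 0.911, rho = 0.90), *Alg9* (r = 0.902, rho = 0.834), *Ccl9* (r = 0.900, rho = 0.80) and *Clba1* (r = 0.899, rho = 0.882). None of these 10 genes was a member.

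Of 48 other genes in 7 lists of the clock and of stimuli that reach it, 44 were tested and 0 passed the threshold with edgeR or limma for PTX in KO or between the sexes. DESeq2 called 0 for PTX in KO, where it called 0.192% of all genes. Between the sexes it called 2 (*Cdkn1a* and *Fkbp5*, both lower in females), where it called 0.838% of all genes. At an unadjusted p of 0.05 there was 1 gene (*Rbm3*) for PTX in KO beside 4.32% of all tested genes, and there were 5 between the sexes (*Bhlhe40*, *Cdkn1a*, *Fbxl21*, *Fkbp5* and *Nr4a1*), beside 8.44%. In the positive limb of the clock, *Clock*, which encodes the partner of BMAL1, had a mean of 3.75 FPKM and a log2 fold change of -0.10 ± 0.14 for PTX in KO. *Npas2* and *Arntl2*, relatives of *Clock* and *Arntl*, had values of 0.25 ± 0.18 and 0.27 ± 0.17, and *Rora*, an activator at ROR elements, -0.03 ± 0.15. In the negative limb, *Cry2* (15.1 FPKM) and *Cry1* (4.05 FPKM), partners of the PER proteins, had values of -0.05 ± 0.09 and -0.00 ± 0.13, and the E-box repressors *Bhlhe40* and *Bhlhe41* 0.17 ± 0.13 and -0.05 ± 0.13. Among kinases and ubiquitin ligase subunits that set the lifetime of clock proteins, values were -0.04 ± 0.09 for *Fbxw11*, -0.04 ± 0.07 for *Csnk1d*, 0.00 ± 0.09 for *Gsk3b*, 0.10 ± 0.08 for *Csnk1e*, 0.12 ± 0.09 for *Btrc* and 0.23 ± 0.19 for *Fbxl21*.

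The median log2 fold change for PTX in KO was -0.03 in the positive limb (5 tested), -0.02 in the negative limb (4 tested) and 0.00 in the turnover list (7 tested). With 1 library left out these medians ran from -0.13 to 0.09, -0.06 to 0.06 and -0.07 to 0.07. The median was -0.05 among 6 clock outputs (such as *Tsc22d3* at -0.17 ± 0.10 and *Nampt* at -0.05 ± 0.12), with 6 of 6 below 0 but 3 of 6 without KO control 1 or KO PTX 3 and with a replicate block. Glucocorticoid targets, which answer to the daily hormone rhythm and to stress, had a median of -0.19 with 7 of 7 below 0 (5 of 7 without KO PTX 2, and a median of -0.12 without KO control 1 and -0.29 without KO control 3), among them *Klf9* at -0.19 ± 0.14, *Fkbp5* at -0.23 ± 0.11, *Cdkn1a* at -0.13 ± 0.17 and *Errfi1* at -0.12 ± 0.11. Temperature-responsive genes had a median of 0.09 (-0.05 without KO control 3 and 0.21 without KO PTX 2) and ran from -0.20 to 0.24. Among them were *Hsp90aa1* at -0.00 ± 0.11, *Hsph1* at 0.03 ± 0.14, *Hspa8* at 0.22 ± 0.13 and the cold-shock gene *Rbm3* at 0.24 ± 0.10. Immediate early genes had a median of -0.05 (0.18 without KO PTX 2 and -0.28 without KO PTX 3), with *Egr2* at -0.45 ± 0.23, *Nr4a1* at 0.01 ± 0.11 and *Junb* at -0.03 ± 0.22. The median of all tested genes was -0.01. For PTX in WT, where values are a description, the list medians ran from -0.47 (immediate early genes, -0.25 without WT control 1) to 0.14 (positive limb, 0.02 without WT PTX 3), beside 0.66 for the 8 members other than *Arntl* and *Nfil3*. Between the sexes the largest list median was -0.21, for glucocorticoid targets (-0.13 without WT control 3), with *Cdkn1a* at -0.43 ± 0.12 for females against males (adjusted p = 0.448, edgeR) and *Fkbp5* at -0.28 ± 0.07 (adjusted p = 0.447, edgeR).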

How the data were processed

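DRG RNA from 11 mice was sequenced as stranded poly(A) libraries. Per the labels, the authors' processing used cutadapt, FastQC, HISAT2 and StringTie on mm10, with no versions or strand setting given in the sources used here. The authors deposited 1 table with FPKM, scaled by them for transcript length and library size, and with estimated counts, without normalization. Counts were rounded and fitted with edgeR 4.0.16 in R 4.3.3 (TMM, quasi-likelihood, group and sex as terms, all 11 libraries, genes with a mean of at least 0.5 FPKM), with Benjamini-Hochberg adjustment and a threshold of 0.05. The SE was taken as the absolute log2 fold change over the root of the F statistic. The *Arntl* to *Dbp* index was compared between sexes by exact permutation. DESeq2 1.42.0, limma 3.58.1, other scaling, no filter, no sex term, a replicate block and each library left out were alternatives. The code was tested on simulated data. Groups and replicate numbers came from the sample labels, whose descriptions number the KO PTX mice 2 and 3 (the titles 1 and 2). Each library is labelled as its own mouse. Of the 36670 genes, 36532 were found in GENCODE M21.

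The members and lists were chosen with earlier results of these data known. Genes named were all members, up to 4 genes per list by mean FPKM or threshold, the 5 most like *Per3* and *Arntl*, and *Gpr37l1*; *Opalin*, *Mog*, *Thra*, *Sphk2*, *Camta1*, *Pde10a*, *Csnk1e*, *Btrc* and *Fbxl21* were named after their values were seen. A gene that this rule would name is not reported here. No column of another sample was used. Python 3.11.15 with numpy 2.4.6, pandas 2.3.3, scipy 1.17.1 and matplotlib 3.10.9 was used.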

Additional observations from a re-analysis of the deposited data

How the results depend on the processing

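For PTX in KO, 29 genes passed with DESeq2 against 1 with edgeR, and 1 to 7 with a library left out. Between the sexes 124 passed with DESeq2 and 14 with no filter against 6, and 5 to 12 with a library left out. For PTX in WT, 309 passed with DESeq2, 2 with no filter, and 0 with limma at either pseudocount or without the sex term, against 1, and 0 to 30 with a library left out. Of the members, 2 were called between the sexes with DESeq2 against 0, *Ciart* and *Per3*, the latter picked in a fit with the sex term. The fall of the index in females was -0.47 with FPKM + 1 (exact permutation p = 0.056) and ran from -0.86 to -0.53 with a library left out (exact permutation p from 0.056 to 0.111), where the smallest possible p was itself 0.0278 to 0.0556. For PTX in KO, values with a library left out ran from -0.22 to 0.36 for *Per1*, and 4 of its values were below 0 (-0.011 without WT control 3, -0.16 without KO control 2, -0.057 without KO control 3 and -0.22 without KO PTX 3). They ran from -0.042 to 0.27 for *Per2*, -0.026 to 0.24 for *Nr1d2* and -0.041 to 0.15 for *Tef*, which was -0.027 without KO PTX 2. On log2(FPKM + 1) the values of PTX in WT shrank, to 0.60 for *Per3*, 0.65 for *Ciart* and -0.45 for *Arntl*, because the pseudocount is near their level. The cause of the other changes was not tested.

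Deviations from group means over all tested genes were correlated between same-numbered mice (15 pairs, median r 0.083, 5 over 0.1). The r ran from -0.18 (WT control 2 and WT PTX 2) to 0.23 (WT control 3 and KO PTX 3). Pairs with different numbers were not computed, so a part shared by number was not tested. The numbers were not taken as pairs in the main fit. With a replicate block 1 gene passed for PTX in KO and 1 for PTX in WT, as without it, and 0 members for PTX in KO. The block could not be fitted between the sexes, since replicate 3 is the female of every group.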
